A study of Arabidopsis thaliana with 6 samples.

Results

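ZAT10, ZAT12, ZAT6, ZAT11, ZAT18, ZAT7, ZAT8, ZAT5, AZF1 and AZF2 are 10 genes of Arabidopsis thaliana for zinc finger repressors, and 8 of them had a peak in at least 1 of 4 anti-FLAG ChIP-seq peak lists. They were chosen by name with the peak lists of these data already known, and each was found in a list when the authors' annotation gave it a peak there. The reference gene table holds 37899 nuclear genes, of which 12573 had a peak in any list. Seedlings carried FLAG-tagged CND1 in the cnd1-3 background (pCND1-Flag/cnd1-3, called CND1-FLAG here) or were Col-0 plants without a tag. Each genotype had 2 ChIP libraries and 1 input. The genotypes differ in the mutant allele, the transgene and the tag together, and these cannot be told apart here. The labels give neither the promoter of the transgene nor the age of the seedlings. They also leave unsaid if replicate libraries are from separate plants, so spread between them may be technical. No stress treatment is named in the labels.

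Proteins of this family carry C2H2 zinc fingers that bind DNA and a short EAR motif, which recruits co-repressors of the TOPLESS family and lowers the transcription of target genes. Most of the genes are known for rapid and transient induction, ZAT10 and ZAT12 by cold, high light and reactive oxygen, AZF1 and AZF2 by salt and abscisic acid. The measurements below are about DNA recovered at the genes, not about their transcripts or proteins.

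The 10 genes fell into 6 patterns. ZAT10, ZAT12, ZAT6 and AZF2 had a peak in all 4 lists, and ZAT5 had one in both CND1-FLAG lists alone. ZAT7 had a peak in CND1-FLAG replicate 1 alone, AZF1 in both Col-0 lists alone and ZAT18 in Col-0 replicate 1 alone. ZAT8 and ZAT11 had none. Thus 5 of 10 genes were called in both CND1-FLAG lists, against 18.3% of all annotated nuclear genes, and 6 of 10 in at least 1 Col-0 list, against 17.6%. The call in both CND1-FLAG lists and no Col-0 list held for 1 of 10, ZAT5, against 7.79%, and the call in all 4 lists for 4 of 10, against 6.58%. AZF1 was the only one of the 10 called in both Col-0 lists and no CND1-FLAG list, which held for 1.04% of all genes. The genes were picked with these lists in view, so nothing is read from the shares.

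**Figure D1:**
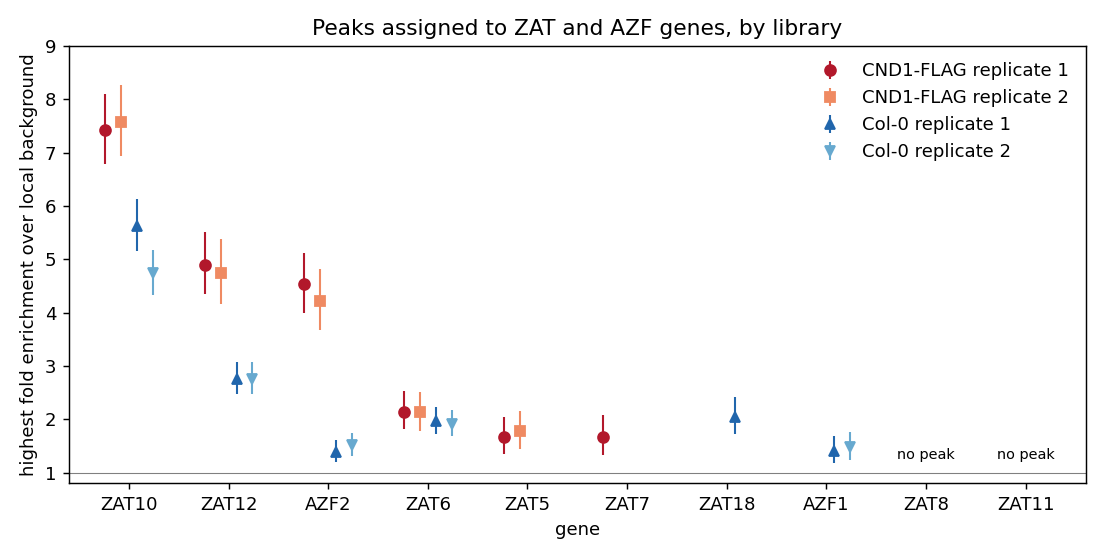
Highest fold enrichment over local background of the peaks assigned to each gene, 1 point per library, with bars for the 95% Poisson counting interval of the fragments at the summit. ZAT10, ZAT12 and AZF2 stand above 4 in both CND1-FLAG libraries, and AZF2 is below 2 in both Col-0 libraries.

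The value of a peak is the fold enrichment of its summit, the point of highest pile-up, over the local background that the authors' peak caller estimated. Fold and p-value together give back the fragments stacked at a summit. At a median nuclear summit the background corresponded to 41.9 and 38.5 fragments in CND1-FLAG replicates 1 and 2 and to 77.4 and 79.8 in Col-0 replicates 1 and 2, so the untagged libraries were the deeper ones. The median fold of all nuclear peaks was 1.92 and 1.91 in the CND1-FLAG lists and 1.66 in each Col-0 list. Intervals given below are 95% exact Poisson intervals on the summit fragments. They cover counting error alone, take the background as known and do not allow for the summit being a maximum.

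AZF2 (AT3G19580), a repressor of genes that respond to salt and abscisic acid, showed the widest gap between the genotypes. Its fold was 4.53 (interval 3.99 to 5.13) and 4.22 (3.67 to 4.82) in CND1-FLAG replicates 1 and 2. It was 1.40 (1.20 to 1.61) and 1.51 (1.31 to 1.74) in Col-0 replicates 1 and 2. Both CND1-FLAG libraries were thus high and both Col-0 libraries low, with no overlap of the values or of their counting intervals. The means were 4.37 ± 0.223 and 1.45 ± 0.0833 (SD, n = 2 each), a ratio of 3.01 or 1.59 on the log2 scale.

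The raw fragments at AZF2 ran the same way although the CND1-FLAG libraries were shallower. The summit held 251 and 211 fragments in the CND1-FLAG libraries, over backgrounds of 54.6 and 49.3. In Col-0 it held 178 and 191 fragments over backgrounds of 127 and 126. Among the 2495 genes called in all 4 lists the ratio of AZF2 was the 6th highest. Left out of this ranking are the 2952 genes called in both CND1-FLAG lists and no Col-0 list, which have no ratio. Another 617 of the 2495 genes had a Col-0 mean fold within 10% of that of AZF2. The median of their CND1-FLAG means was 1.95, and 1 of the 617 lay above AZF2. AZF2 ranked 118 of 12933 and 133 of 10414 nuclear peaks by fold in the CND1-FLAG lists, and 5943 of 6152 and 4577 of 5722 in the Col-0 lists. Its Col-0 peaks were weak calls, with −log10 q of 2.26 and 3.88, and neither had −log10 q of 5 or more.

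ZAT12 (AT5G59820), which takes part in responses to light, cold and oxidative stress, was enriched in every library and more so with the tag. Its fold was 4.90 (interval 4.34 to 5.51) and 4.74 (4.17 to 5.38) in the CND1-FLAG libraries. In the Col-0 libraries it was 2.76 (2.47 to 3.08) in replicate 1 and 2.76 (2.47 to 3.07) in replicate 2. The groups did not overlap, and neither did the counting intervals. The means were 4.82 ± 0.109 and 2.76 ± 1.41e-05 (SD, n = 2 each), a ratio of 1.75, which ranked 192 of 2495. The near identity of the Col-0 values is closer than their counting intervals, so that SD understates the error. Among 77 other genes within 10% of its Col-0 mean, the median CND1-FLAG mean was 3.28 and 20 genes lay above ZAT12.

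ZAT10 (AT1G27730), also known as STZ, was among the strongest peaks of both genotypes. Its fold was 7.42 (interval 6.78 to 8.10) and 7.58 (6.93 to 8.27) in the CND1-FLAG libraries, ranks 25 and 22 by fold. In Col-0 it was 5.63 (5.15 to 6.13) and 4.74 (4.33 to 5.18), ranks 1 and 8. In Col-0 replicate 1, a library with no FLAG epitope, no nuclear peak had a higher fold. The CND1-FLAG values lay above the Col-0 values, with means of 7.50 ± 0.114 and 5.18 ± 0.626 (SD, n = 2 each) and a ratio of 1.45. This ratio ranked 492 of 2495. Of 7 other genes within 10% of its Col-0 mean, 4 had a higher CND1-FLAG mean, and their median was 8.14.

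The pile-up at ZAT10 was high in absolute terms. The summit held 501 fragments in each CND1-FLAG library, and 512 and 486 in the Col-0 libraries. If 1 fragment per position and strand was kept, the most a position can hold is 2 times the fragment length, for which the smallest peak width of each list was taken. That came to 652 and 662 fragments for the CND1-FLAG lists, and the plastid summits there had a median of 100% and 99.8% of it. The Col-0 lists have no plastid summit, so their ceilings of 700 and 714 fragments have no such check. ZAT10 stood at 76.8% and 75.7% of this ceiling in CND1-FLAG and at 73.1% and 68.1% in Col-0. ZAT12 and AZF2 stood at 25.4% to 45.8% in all libraries. The part of the ceiling in the fold of ZAT10 was not tested.

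ZAT6 (AT5G04340), a family member linked to cold, cadmium and phosphate responses, had nearly the same values in both genotypes. Its fold was 2.14 and 2.13 in CND1-FLAG and 1.96 and 1.91 in Col-0. The means were 2.14 ± 0.0109 and 1.94 ± 0.0384 (SD, n = 2 each). The counting intervals of all 4 libraries overlapped, from 1.81 to 2.52 and 1.79 to 2.52 in CND1-FLAG and from 1.73 to 2.22 and 1.68 to 2.17 in Col-0. Its ratio of 1.10 was below the median of 1.21 over all genes of the 4 lists and ranked 1790 of 2495.

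All 4 of these genes had both CND1-FLAG folds above both Col-0 folds. The same held for 1748 of the 2495 genes of all 4 lists, or 70.1%, and the direction is thus common. What differed among the 4 was the size of the gap. The ratio ran from 1.10 at ZAT6 through 1.45 at ZAT10 and 1.75 at ZAT12 to 3.01 at AZF2, while 10% of the 2495 genes exceeded 1.66 and 3.49% exceeded 2. ZAT10 and ZAT12 are neighbours in this order. The smallest CND1-FLAG fold over the largest Col-0 fold was 1.32 at ZAT10 and 1.72 at ZAT12. The ratio of ZAT10 rests on the most spread Col-0 values of the 4 genes. With 2 against 2 libraries an exact two-sided permutation test gives no p below 0.333. Fold values of the genotypes rest on different depths and scaling, and may rest on different inputs.

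**Figure D2:**
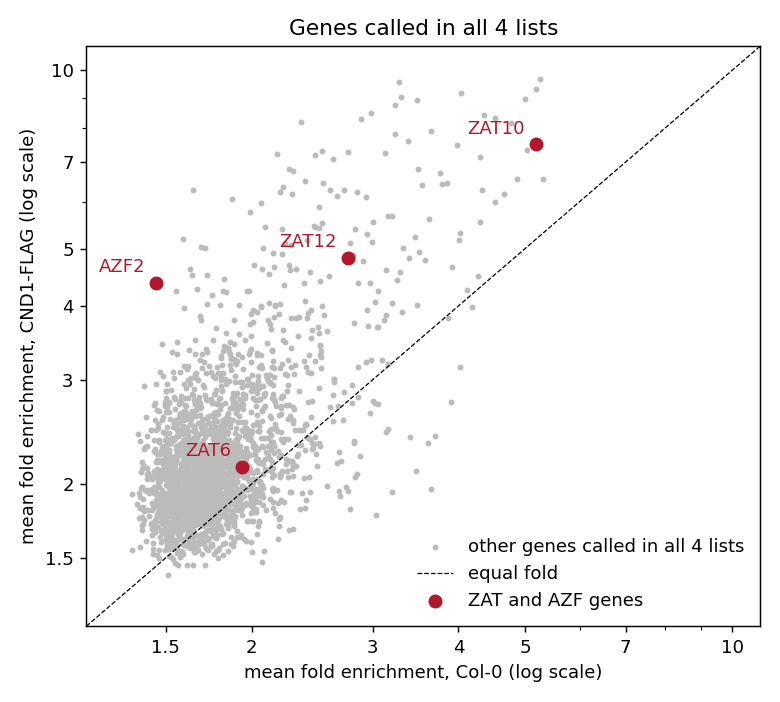
Mean fold enrichment in CND1-FLAG (vertical) against Col-0 (horizontal), both on log scales, for the 2495 genes called in all 4 lists, with the dashed line at equal fold. AZF2 lies far above most genes with like Col-0 values. ZAT10 lies at the upper right among the strongest peaks of both genotypes, and ZAT6 lies within the main cloud.

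**Figure D3:**
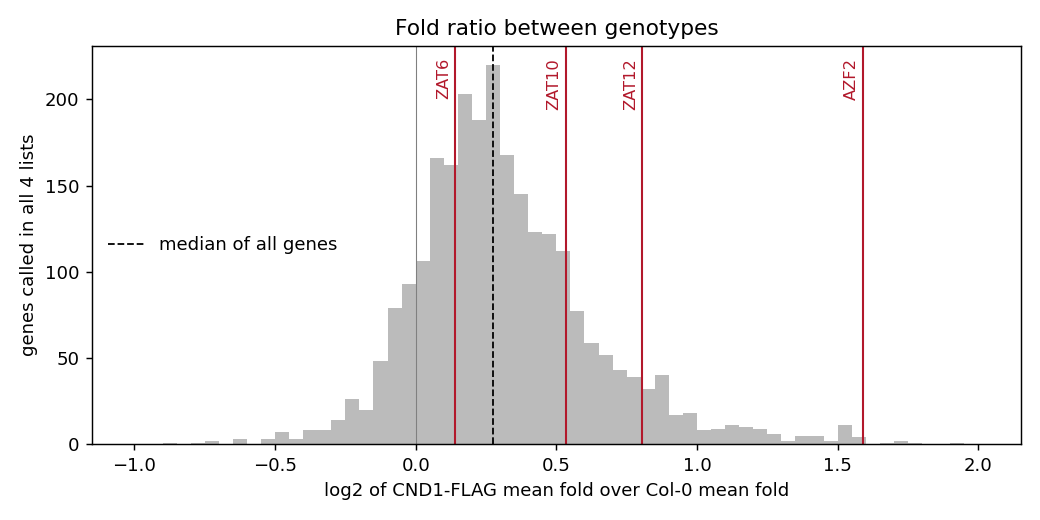
Distribution of the log2 ratio of the CND1-FLAG mean fold to the Col-0 mean fold over the 2495 genes called in all 4 lists, with the dashed line at their median and red lines at the ZAT and AZF genes. ZAT6 lies below the median, ZAT10 and ZAT12 above it, and AZF2, at 1.59, in the right tail.

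Every summit of the 8 genes lay within a gene body. All 25 summits assigned to them lay inside the annotated transcript, and the authors' annotation called all 25 promoter, a class that reaches 3 kb from a gene start. They stood between 22.9% and 69.3% of the way along the transcript, with a median of 55.6%. Over all genes 66.6% to 71.4% of the strongest summits lay inside the assigned transcript, and the median place of those was 31.2% and 32.0% of its length with the tag and 40.04% and 39.6% without it. The transcripts of the 8 genes were short, from 803 to 1431 bp. In bp their strongest summits stood 230 to 992 from the start, around medians over all genes of 473 and 483 bp in CND1-FLAG and 649.5 and 640.5 bp in Col-0.

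The strongest summits of a gene lay 20 to 99 bp apart between libraries in the 6 genes with a peak in more than 1 list. At ZAT12 the 4 summits lay within 20 bp, between 530 and 550 bp from the start of the gene (chromosome 5, peak 24102855 to 24103662 on TAIR10 in CND1-FLAG replicate 1). At ZAT6 they lay within 38 bp, between 781 and 819 bp from the start (chromosome 5, 1216208 to 1216956). At ZAT10 they lay within 46 bp, between 786 and 832 bp from the start (chromosome 1, 9648055 to 9649103). The tagged and the untagged libraries thus peaked within 46 bp of each other in these 3 genes. The strongest AZF2 summits spread over 81 bp, between 432 and 513 bp from the start of the transcript AT3G19580.2 (chromosome 3, 6803190 to 6804178), and Col-0 replicate 1 had a second summit there. The strongest summits of ZAT5 in CND1-FLAG and of AZF1 in Col-0 were 98 and 99 bp apart.

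**Figure D4:**
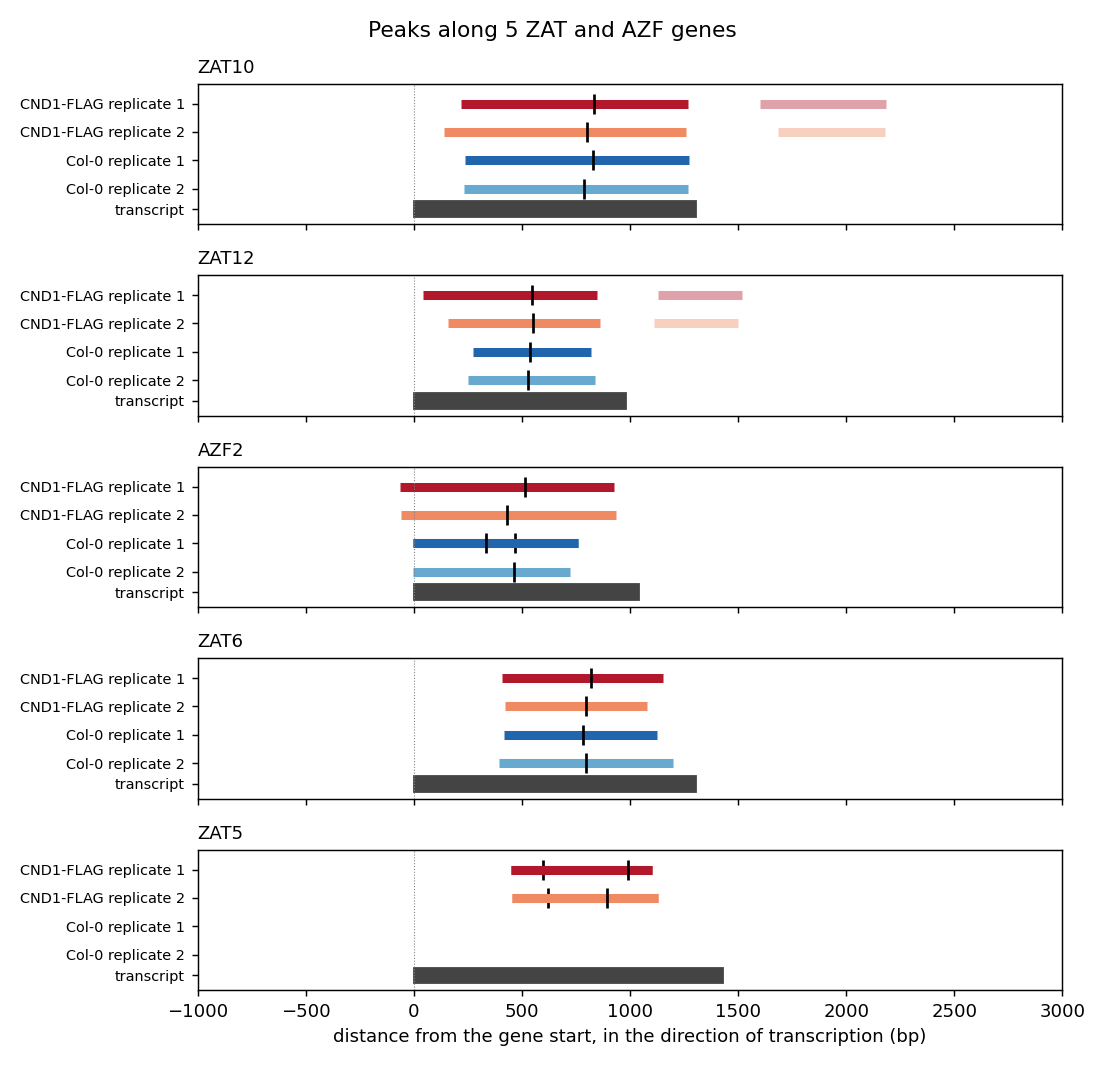
Peaks of the 4 libraries along 5 genes, in bp from the gene start in the direction of transcription, with black ticks at the summits, dark bars for the transcript and pale bars for peaks assigned to other genes. Solid bars of a gene line up across libraries, the CND1-FLAG bars of ZAT12 and AZF2 are longer than the Col-0 bars, and pale bars past the ends of ZAT10 and ZAT12 appear for CND1-FLAG alone.

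The peaks of ZAT12 and AZF2 were wider with the tag. The ZAT12 peak measured 808 and 703 bp in CND1-FLAG against 546 and 587 bp in Col-0, and its near edge lay 41 and 157 bp from the gene start against 274 and 251 bp. The AZF2 peak measured 989 and 994 bp against 764 and 727 bp and its near edge lay at −64 and −57 bp from the transcript start in CND1-FLAG, against −4 and −5 bp in Col-0. Their width ratios of 1.33 each ranked 565 and 572 among the 2495 genes, whose median was 1.07, so widening of this size was common. ZAT10 peaks covered most of the 1303 bp transcript in every library. They measured 1049 and 1120 bp in CND1-FLAG and 1038 and 1036 bp in Col-0, and ended 28 to 41 bp short of the gene end. Peaks of ZAT6 measured 749 and 656 bp against 710 and 809 bp, with overlapping groups.

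Past the ends of ZAT10, ZAT12, ZAT6 and ZAT7 lay separate peaks that the authors' annotation gave to another gene. Beyond ZAT12 a peak at 24103942 to 24104330 on chromosome 5, assigned to AT5G59830, had a fold of 2.19 (interval 1.73 to 2.73) in CND1-FLAG replicate 1. In replicate 2 it had 2.20 (1.71 to 2.78) at 24103927 to 24104314. These began 148 and 133 bp from the gene end. Beyond ZAT10 a peak assigned to TAF4 (AT1G27720), for a subunit of the general transcription factor TFIID, lay 299 and 381 bp from the gene end and had 2.16 (1.76 to 2.62) and 2.05 (1.64 to 2.54). A second TAF4 peak, 2160 and 2191 bp from the end of ZAT10, had 1.82 and 2.16 in CND1-FLAG replicates 1 and 2. Neither Col-0 list had a peak at any of these places. Beyond ZAT6, 1795 to 2793 bp from its end, peaks at CYP84A4 (AT5G04330), a cytochrome P450 gene, were called in both genotypes. They had 1.61 and 1.68 in CND1-FLAG replicate 1, 1.74 in replicate 2 and 1.51 in Col-0 replicate 2. A peak 529 bp past the end of ZAT7, assigned to AT3G46086, had 1.90 in CND1-FLAG replicate 1 alone. The same peak lay 1712 bp from ZAT8. A peak 1666 bp from ZAT8, assigned to AT3G46070, had 1.48 in Col-0 replicate 1 alone. The CND1-FLAG lists hold 12933 and 10414 nuclear peaks and the Col-0 lists 6152 and 5722, so the tagged lists are the longer ones. How often other genes have such neighbours was not worked out, and Col-0 signal below the calling threshold was not measured.

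ZAT5 (AT2G28200) was the 1 gene with a peak in each CND1-FLAG list and none in Col-0, and that peak was weak. Its strongest summits had folds of 1.67 (interval 1.34 to 2.05) and 1.77 (1.44 to 2.16), with −log10 q of 4.13 and 5.35 and 89 and 96 fragments. The peak covered 451 to 1104 bp and 453 to 1131 bp from the gene start (chromosome 2, 12024391 to 12025044 in replicate 1) and held 2 summits in each library. Among the 2952 genes with this pattern, 81.5% had a higher mean fold than ZAT5, whose mean was 1.72 ± 0.0748 (SD, n = 2). In the Col-0 lists 68.7% and 68.2% of the peaks had a fold of 1.77 or less, so peaks as weak as this were often called there. ZAT5 was no longer called in both CND1-FLAG lists with −log10 q of at least 5, with a fold of at least 2 or with lists of equal length.

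The remaining calls were weak or stood in 1 library. AZF1 (AT5G67450), a relative of AZF2, had the opposite pattern of calls, with folds of 1.41 (interval 1.17 to 1.69) and 1.48 (1.24 to 1.75) in Col-0 and no peak in CND1-FLAG. Its −log10 q was 1.64 and 2.32, where the lowest in those lists was 1.30. By q these peaks ranked 5784 of 6152 in Col-0 replicate 1 and 4645 of 5722 in replicate 2. Folds of 1.48 or less made up 3.06% of the peaks of each CND1-FLAG list, so peaks this weak were rarely called there. The Col-0 folds of AZF1, 1.44 ± 0.0466 (SD, n = 2), and of AZF2, 1.45 ± 0.0833, did not differ beyond their spread.

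ZAT18 (AT3G53600), a gene known from drought responses, had a fold of 2.05 (interval 1.72 to 2.41) with −log10 q of 8.04 in Col-0 replicate 1 and no peak in the other 3 libraries. Folds up to that size made up 62.9% and 65.2% of the CND1-FLAG peaks and 89.2% of the Col-0 replicate 2 peaks. ZAT7 (AT3G46090) had 1.68 (1.33 to 2.09) with −log10 q of 3.71 in CND1-FLAG replicate 1 alone. ZAT7 and ZAT8 lie close together on chromosome 3 and encode similar proteins, and how reads that match both were counted is not given in the sources used here. ZAT8 (AT3G46080) and ZAT11 (AT2G37430) had no peak in any list, which says that no called summit was assigned to them. The called peaks near ZAT8 given above went to other genes. The 10 genes thus ranged from no call at all to a peak that led a whole library.

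Over the 5 genes of both CND1-FLAG lists the mean fold ran from 1.72 to 7.50 with a median of 4.37, beside a median of 2.001 over the 6949 genes of both lists. The 10 genes were chosen with these folds known, so nothing is read from that difference. Of the family outside the set, AZF3 (AT5G43170) was the 1 gene that the reference gene table names by symbol. It had folds of 1.91 and 2.13 with the tag and no Col-0 peak. With AZF3, 13 genes outside the set had a ZAT or AZF protein as their closest database entry in the authors' annotation. A list built this way holds no gene without a peak, so its shares were not set beside the background. Of these 13 genes 8 were called in both CND1-FLAG lists and 4 of the 8 in no Col-0 list. At least 1 Col-0 list held 7 of the 13, and 2, ZAT3 and AT3G46070, were called in Col-0 alone.

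None of those 13 reached the CND1-FLAG folds of ZAT12 or AZF2. The highest was AT2G28710, closest to ZAT12, with 2.91 and 2.70 in CND1-FLAG and 1.54 and 1.81 in Col-0. AT1G49900, closest to AZF2, had 2.28 and 2.11 against 1.63 and 1.58. AT3G10470, closest to ZAT5, had 2.39 and 1.86 against 1.51 and 1.51. These genes were named by their CND1-FLAG ranks, so their direction is not read as that of the 13. AT5G56200, closest to ZAT6, had 2.20 and 1.72 against 1.72 in Col-0 replicate 2, and ZAT3 (AT4G35280) had 1.78 and 1.68 in Col-0 and no CND1-FLAG peak. AT1G02040, with 1.92 and 1.80, and AT5G04390, with 1.87 and 1.99, had no Col-0 peak.

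A list of 17 genes around the repressors held co-repressors, kinases, regulators and stress genes of the same network. In it 6 of 17 genes were called in both CND1-FLAG lists, against 18.3% of all nuclear genes. At least 1 Col-0 list held 7 of 17, against 17.6%. No list held 7 of the 17, while 12573 of the 37899 nuclear genes had a peak in any list. CBF1, CBF2 and CBF3 are in both counts of calls and have neighbouring gene identifiers, so these are not counts of separate loci. The 17 genes were chosen with earlier results known, so nothing is read from the shares. Among the co-repressors HDA19 (AT4G38130), a histone deacetylase, had 2.102 and 1.77 in CND1-FLAG and no Col-0 peak. TPR2 (AT3G16830), a TOPLESS-related protein, had 1.59 and 1.46 in CND1-FLAG and 1.46 and 1.71 in Col-0, with overlapping groups. TPL (AT1G15750), the TOPLESS protein itself, had 1.69 in CND1-FLAG replicate 2 alone of the tagged pair and 1.43 and 1.40 in Col-0. TPR3 (AT5G27030) had 1.39 in Col-0 replicate 2 alone, and TPR1, TPR4 and SAP18 had no peak in any list. The kinases MPK3 and MPK6, which phosphorylate ZAT10 and ZAT6, and the stress regulators CAMTA3 and WRKY33 had no peak in any list.

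Of the stress genes DREB2A (AT5G05410), a drought and heat regulator, had 3.00 and 3.15 in CND1-FLAG and no Col-0 peak. APX1 (AT1G07890), an ascorbate peroxidase that removes hydrogen peroxide, had 1.5004 in CND1-FLAG replicate 2, no peak in replicate 1, and 2.14 and 1.85 in Col-0. APX2 (AT3G09640), the other ascorbate peroxidase of the list, had 2.12 in CND1-FLAG replicate 1 and no peak in any other library. The cold regulators CBF1, CBF2 and CBF3 were called in all 4 lists, as AZF2 was. CBF2 (AT4G25470) had 7.14 and 7.29 against 2.13 and 2.23, a ratio of 3.31. CBF1 (AT4G25490) had 6.88 and 6.66 against 2.51 and 2.08, a ratio of 2.95. CBF3 (AT4G25480) had 2.75 and 2.74 against 1.51 and 1.38, a ratio of 1.90. The ratio of AZF2 lay between those of CBF1 and CBF2.

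By folds over the 4 libraries, the gene most like ZAT10 was TIFY10A (AT1G19180), the jasmonate repressor JAZ1. It had 7.37 and 7.32 in CND1-FLAG and 4.97 and 5.09 in Col-0, and no library differed from ZAT10 by more than 0.651. The next were AT1G15010 and AT4G06665, whose largest differences were 0.975 and 1.16.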

How the data were processed

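Anti-FLAG ChIP-seq was made from seedlings fixed with 1% formaldehyde for 10 minutes, and paired ends were sequenced. The submitters' processing notes name fastp 0.19.11, BWA 0.7.12, MACS2 2.1.0 and the genome TAIR10. The authors deposited 1 annotated list of peak summits per ChIP library. The ratio that the authors deposited is headed signalValue and was read here as each summit's fold over local background. Their p and q values were deposited as −log10, and the integer score the authors deposited was not used. Positions are in base pairs on TAIR10, counted from 1, and promoter means within 3 kb of a gene start. The sources used here do not give the input or threshold behind a list.

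Samples were grouped by their titles. A gene was called in a list when at least 1 nuclear row had it as the assigned gene, and its value was the highest fold of those rows. Peaks were ranked by fold after summits sharing a start and an end were joined. Background shares were taken over the nuclear genes of the TAIR10.1 reference gene table, which held all 12573 assigned genes. Of a fold of pile-up plus 1 over background plus 1 and a Poisson p, the pile-up was solved. It was whole within 0.05 for 100% of 300 held-out summits of each list, with the Col-0 pile-ups scaled by 0.723 and 0.739, and the method was checked on simulated data. Python 3.11.15, pandas 2.3.3 and scipy 1.17.1 were used. No hypothesis test was run.

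The genes and lists were chosen with earlier results of these data known. Named genes were all 10, the 6 related genes best placed by the worse of their CND1-FLAG ranks, every gene of the list of 17 in both CND1-FLAG lists, and the 3 genes whose folds lay nearest to those of ZAT10. MPK3, MPK6, CAMTA3, WRKY33, TPL, TPR1, TPR3, TPR4, SAP18, APX1, APX2, ZAT3, AT5G56200, AT3G46070, TAF4, CYP84A4, AT5G59830 and AT3G46086 fall outside this rule. They were named after their values were seen. A list of related proteins by sequence and a search of promoter motifs were planned and not run, since no sequences were used here.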

Additional observations from a re-analysis of the deposited data

How the results depend on the processing

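No paired analysis was possible because no result comes from a test and the replicate numbers only name the libraries. Of 70 alternative values 56 kept close to the value as reported and 14 moved. None was a reversal, but a count or a median fold has no direction to reverse. Counts that fell from 5 to 4 or from 6 to 4 were among those taken as close. The alternatives kept only peaks with −log10 q of at least 5, only folds of at least 2, lists of equal length of 5722 peaks, peaks by overlap with the gene, peaks within 1000 bp of the start, or left out 1 library. Taking peaks by overlap or within 1000 bp of the start left every value as it was. Leaving out a Col-0 library cannot change a value drawn from the CND1-FLAG lists alone. The tally is therefore not a measure of robustness. Genes called in both CND1-FLAG lists, or in the 1 list that remained when a CND1-FLAG library was left out, numbered 4 to 6 throughout. Those with no Col-0 peak, 1 as reported, were again 1 with −log10 q of at least 5, where AZF2 took the place of ZAT5. They were 2, AZF2 and ZAT6, with folds of at least 2, 0 with lists of equal length, and 1 to 2 with 1 library left out, where ZAT7 joined ZAT5 without CND1-FLAG replicate 2. Genes in at least 1 Col-0 list fell from 6 to 3 with folds of at least 2. That setting removed the Col-0 peaks of AZF2 and ZAT6, which left them no Col-0 fold to compare. Genes whose CND1-FLAG folds were all above the Col-0 folds thus fell from 4 to 2 there. The alternatives for that last count were chosen after seeing the data. The median CND1-FLAG fold was 4.60 under each of the first 3 alternatives, where ZAT5 was no longer called, and 3.34 to 4.37 with 1 library left out. The median ratio, 1.60, was 1.45 with −log10 q of at least 5, which removed the Col-0 peaks of AZF2. AZF3 alone stood for the rest of the family, and its count of 1, in both CND1-FLAG lists and also with no Col-0 list, was 0 with folds of at least 2 and with lists of equal length. A gene without a call had no measured signal, so differences below the calling threshold were not detectable here.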
